A study of Rattus norvegicus with 19 samples.

Results

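The synaptic vesicle and release machinery was followed as a group of 38 genes, chosen by name, in rat somatosensory cortex profiled on Affymetrix arrays. A probe set (the group of short probes that reports on 1 transcript) entered where the gene the platform gives for it was a member. Gene symbols were first updated to RefSeq (build GRCr8) where an entry was found. Where a gene had several probe sets, the one brightest on average across the 19 arrays stood for it. Of the 38 members, 37 had such a probe set, out of 14217 genes in all, and Doc2a had none matched. The animals were adult male Wistar rats whose cortex was perfused with artificial cerebrospinal fluid carrying an agent. In set 1 the agents were deoxycholic acid (DOC, a bile salt used to make the blood-brain barrier leaky) at 2 mM, bovine serum albumin at 0.1 mM (25% of its serum concentration) and TGF-β1 at 10 ng/ml. DOC tissue was taken at 7, 24 and 48 h, albumin and TGF-β1 tissue at 8, 24 and 48 h, with 1 array for each, beside 1 array of a sham-operated animal at 24 h. In set 2, all at 24 h, 3 arrays came from animals given albumin at 0.1 mM, 4 from animals given albumin with TGF-β receptor blockers, and 2 from sham-operated animals. The blockers were an antibody to TGF-βR2 at 50 µg/ml and SB431542, an inhibitor of the TGF-βR1 kinase, at 100 µM. For the arrays with blockers the labels give no albumin concentration, so whether it matched the 0.1 mM of the albumin group is not known. No group received the blockers without albumin, and the labels do not say that the sham animals were perfused. A set 1 value is that of 1 array, and the set 1 comparisons with sham all rest on the same sham array.

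Transmitter release is the fusion of a synaptic vesicle with the presynaptic membrane. The vesicle SNARE synaptobrevin (Vamp1, Vamp2) zips together with the membrane SNAREs syntaxin-1A (Stx1a) and SNAP-25 (Snap25), complexins hold and promote the assembled complex, and synaptotagmins sense the calcium that triggers fusion. Munc13 and RIM proteins prime docked vesicles at the active zone, bassoon and piccolo scaffold it, Rab3 GTPases and synapsins manage the vesicle supply, and NSF with its SNAP adaptors takes the SNARE complex apart for reuse. Most of these genes are expressed in neurons throughout the cortex, so their mRNA in a tissue piece depends on the neurons it holds. In bulk tissue, fewer neurons and less RNA per neuron cannot be told apart.

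The promoters of the members were compared with those of other genes. The 250 bases upstream of the start were read from RefSeq (build GRCr8) for the 30 members with an entry, against 21842 protein-coding promoters, and 5 features were counted on both strands. The GC box GGGCGG was present in 21 of 30 members (70%) against 38.9% of all promoters, and the median GC content was 62.8% against 54%. The cyclic AMP response element TGACGTCA was present in 3 of 30 (10%: Syn1, Vamp1 and Napa) against 1.89%. The AP-1 letters TGANTCA and the TATA letters TATAAA were found in 0 of 30 members, against 5.69% and 12.1% of all promoters. The GC box itself adds to the GC content, and no test was made of either. The sequences below belong to members whose values are described further on. They were chosen to show a promoter with 4 GC boxes (Stx1a, chr12:27306472-27306721, minus strand), one with 2 (Pclo, chr4:21005112-21005361, minus strand), one with the cyclic AMP response element beside a GC box (Napa, chr1:85915185-85915434, plus strand) and one with none of these motifs (Sv2b, chr1:138562259-138562508, minus strand). Capitals mark the motifs.
Stx1a: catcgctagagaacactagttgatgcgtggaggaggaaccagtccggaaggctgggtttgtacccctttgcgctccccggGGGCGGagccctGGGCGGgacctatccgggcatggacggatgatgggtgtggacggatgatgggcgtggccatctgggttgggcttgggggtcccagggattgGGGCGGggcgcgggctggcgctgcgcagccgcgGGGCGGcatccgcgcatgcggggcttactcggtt
Pclo: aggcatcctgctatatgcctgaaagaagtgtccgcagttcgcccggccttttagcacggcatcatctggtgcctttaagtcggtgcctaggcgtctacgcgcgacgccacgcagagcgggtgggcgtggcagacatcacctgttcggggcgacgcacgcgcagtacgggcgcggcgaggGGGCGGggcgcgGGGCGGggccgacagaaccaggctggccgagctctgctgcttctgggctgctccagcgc
Napa: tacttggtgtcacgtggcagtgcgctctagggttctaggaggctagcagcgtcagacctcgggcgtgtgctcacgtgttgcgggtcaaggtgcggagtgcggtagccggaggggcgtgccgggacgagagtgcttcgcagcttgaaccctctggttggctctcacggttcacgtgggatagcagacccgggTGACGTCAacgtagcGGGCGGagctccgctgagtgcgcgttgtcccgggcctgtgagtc
Sv2b: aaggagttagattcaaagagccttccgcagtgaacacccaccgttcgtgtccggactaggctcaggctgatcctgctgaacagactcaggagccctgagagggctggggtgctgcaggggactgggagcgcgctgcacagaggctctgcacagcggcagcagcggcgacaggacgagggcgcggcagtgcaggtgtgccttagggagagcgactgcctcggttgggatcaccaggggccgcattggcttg

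Values are GCRMA log2 signals, so a difference of 1 is a 2-fold change. A gene was tested in a set where its signal was above 4 on at least 2 arrays. This kept 31 members in set 2 and 32 in set 1, with Rab3c, a brain Rab3 GTPase, tested in set 1 alone. The members tested in neither set were Syn3 (2.11 to 2.31 over all arrays), Syt2 (1.98 to 2.80), Sv2c (2.09 to 2.28), Doc2b (1.99 to 2.06) and Syt7, whose only value above 4 was 4.21 on the albumin replicate 2 array of set 2. The cortical excitatory marker Slc17a7, a vesicular glutamate transporter, read 10.99 to 11.82 in set 1 and 11.71 to 12.99 in set 2. Of the 10 cortical layer markers 9 passed the filter in each set. Of the 8 striatal markers 5 passed it in both sets: in set 1 Ppp1r1b read 7.42 to 9.71, Penk 7.81 to 9.92, Drd1 5.04 to 7.58, Tac1 5.27 to 7.42 and Rgs9 3.31 to 6.63, while Drd2 and Adora2a failed it and the remaining 1 had no probe set matched. On the TGF-β1 array at 8 h all 5 were at least 2-fold above sham (median difference 1.48). Their summed signal (the log2 of the sum of unlogged signals) was 11.15 there against 9.96 in sham. The part of striatal tissue in the members' values was not tested. Array medians lay between 5.09 and 5.17 in set 1 and between 6.05 and 6.18 in set 2, so levels were compared only within a set.

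Among the arrays of set 2, albumin replicate 2 stood apart. It had a median correlation of 0.9811 with the rest of its set, against 0.9921 to 0.9955 for the other 8 arrays. Its members were lower: 26 of 31 lay below both sham arrays, against 43.3% of all genes tested on that array, and 23 of 31 had their lowest value of the 9 arrays there, against 31.5% of all genes. The median member difference from the sham mean was -0.45 on this array and -0.02 and -0.08 on the other albumin arrays. The 15 neuron markers had medians of -0.53 on it and 0.14 and -0.04 on the others, and 12 of the 15 were below the sham mean on it.

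**Figure D1:**
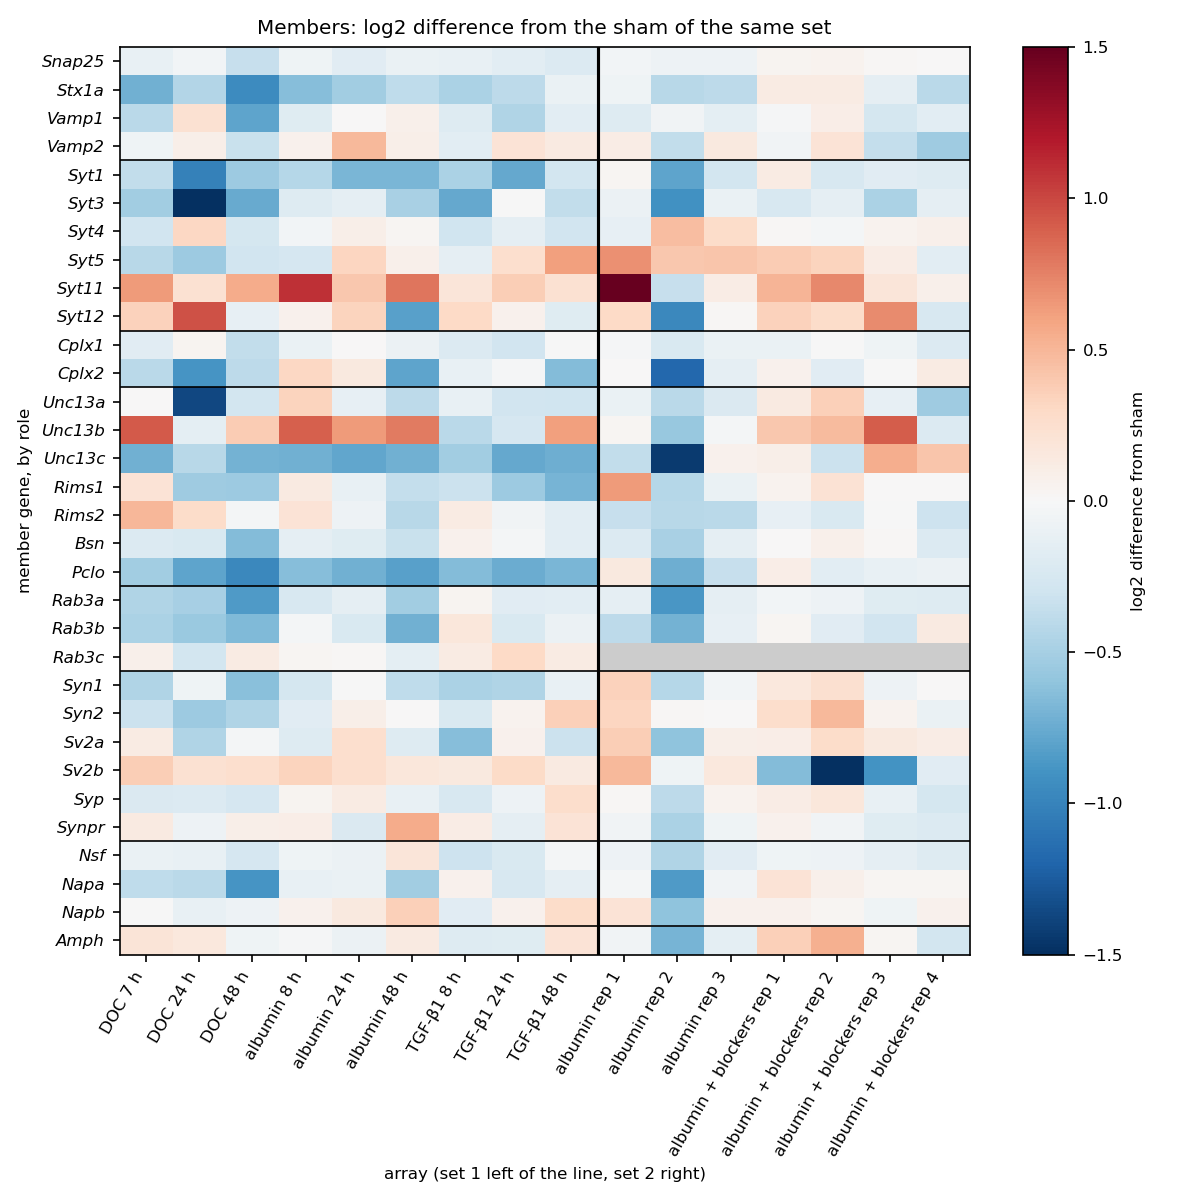
Heat map of the log2 difference of each tested member (rows, grouped by role) from the sham of the same set, for each of the 16 treated arrays (columns), with blue lower and red higher and colours saturating at 1.5. Grey marks Rab3c in set 2, where it was not tested, and the albumin replicate 2 column of set 2 is blue for most members, where 26 of 31 were below both sham arrays.

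The first question was whether albumin alone altered the release machinery by 24 h. None of the 31 members passed an adjusted p of 0.05 (limma with Benjamini-Hochberg adjustment over 10329 genes), against 1.33% of all genes tested, 99 higher and 38 lower. At an unadjusted p under 0.05 the count was 2 of 31 (Rims2 and Syt5), below the 21.4% of all genes. By direction 25 of 31 members were below sham, against 47.7% of all genes, and the median difference was -0.20 against 0.02 for all genes. Without albumin replicate 2 the count was 18 of 31 and the median -0.06. The 95% intervals of 26 of 31 members (83.9%) lay wholly within a 2-fold change, against 74% of all genes. Those of Cplx2, Sv2b, Syt11, Syt12 and Unc13c reached 2-fold or more.

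Rims2 had the smallest p of the members in this comparison. It encodes RIM2, an active zone protein that recruits calcium channels and primes vesicles. Its log2 signal was 8.84, 8.76 and 8.77 on the albumin arrays and 9.17 and 9.19 on the sham arrays. All albumin values were below both sham values, and the difference was -0.39 ± 0.11 (SE; 3 against 2 arrays, 95% interval -0.64 to -0.13), with an unadjusted limma p of 0.00767 and an adjusted p of 0.11. Without albumin replicate 2 the difference was -0.37 (limma adjusted p = 0.132). Rims1, the related RIM1 gene, was at 0.04 ± 0.27.

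Syt5, a synaptotagmin with calcium-binding C2 domains, went the other way. It read 10.87, 10.58 and 10.60 with albumin against 10.29 and 10.08 in sham, a difference of 0.50 ± 0.18 (SE; 95% interval 0.09 to 0.92; limma adjusted p = 0.169), and 0.55 without albumin replicate 2. It was the only member with every albumin array above both sham arrays (1 of 31, against 22.2% of all genes). Syt4, a synaptotagmin of dense-core vesicles and the Golgi, read 12.31, 12.89 and 12.70 against 12.39 and 12.47, so the groups overlapped (0.20 ± 0.16, adjusted p = 0.479 by limma). The calcium sensor of fast release, Syt1, stood 0.03 above the sham mean on albumin replicate 1 and at -0.79 and -0.27 on replicates 2 and 3 (-0.34 ± 0.22).

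None of the members of the other roles passed the threshold either, and their medians were mostly below 0 with all 3 albumin arrays. The 4 SNARE genes had a median difference of -0.10 and all 4 were below 0, from Stx1a at -0.29 to Vamp2 at -0.03. Priming and active zone genes had a median of -0.28 with 6 of 7 below 0: the scaffolds Bsn and Pclo were at -0.28 and -0.31, and the Munc13 genes Unc13a, Unc13b and Unc13c at -0.24, -0.19 and -0.58. The GTPase Rab3b read 9.11, 8.80 and 9.38 against 9.47 and 9.54, all lower than sham (-0.41 ± 0.19, limma adjusted p = 0.254; -0.26 without albumin replicate 2). Rab3a was at -0.37. The complexins Cplx1 and Cplx2 were at -0.11 and -0.43, and the SNARE disassembly genes Nsf, Napa and Napb at -0.23, -0.31 and -0.11. The 6 tested genes of vesicle clustering and membrane proteins had a median of -0.05, with the synapsin Syn2 (0.12) and Sv2b (0.19) above 0. Another Syn2 probe set, of similar brightness, read 10.94, 10.74 and 10.86 with albumin against 11.27 and 11.11 in sham (-0.34). The third was at 0.05. Of 13 members with more than 1 detected probe set, 12 had the same sign in this comparison with every one of them, and Syn2 did not. Amph, the endocytic adaptor amphiphysin, was at -0.30. In all, 8 of 31 members had every albumin array below both sham arrays (Snap25, Stx1a, Synpr, Rab3a, Rab3b, Rims2, Bsn and Napa), against 19.2% of all genes, a share near the background. Without albumin replicate 2 several of these values were nearer to 0, while others changed sign or lay further from 0. The priming and active zone median was then -0.15 with 5 of 7 below 0 and Rims1 at 0.27. The SNARE median was -0.11 with 3 of 4 below 0 and Vamp2 at 0.13. Rab3a was at -0.13, Cplx2 at -0.06, Unc13c at -0.15 and Amph at -0.10. Napa was at -0.04 and Napb at 0.13, and the vesicle clustering and membrane genes had a median of 0.16 with 1 of 6 below 0.

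Markers of other cells differed between the same arrays. The summed signal of the 15 neuron markers (log2 of the sum, so the brightest weigh most) was 16.82 to 16.86 in sham and 16.43 to 16.89 with albumin. None of the 15 was at the floor of the array. The neuron list had a median of -0.12, with 11 of 15 below 0 and 0 of 15 past the threshold. The meningeal markers had all 10 tested genes below sham, 4 of them past the threshold, with summed signals of 14.30 to 14.87 in sham, 11.73 to 12.66 with albumin and 12.93 to 14.19 with albumin and blockers. Of the 9 cortical layer markers tested, 8 were below sham with a median of -0.25. The 9 interneuron markers tested had a median of 0.00, with 5 above 0 and 4 below. Both tested neutrophil markers were higher with albumin (median 4.25, unadjusted p under 0.05 for both, 0 past the threshold), with summed signals of 4.45 to 6.10 in sham, up to 11.88 with albumin and 5.80 to 9.43 with blockers. At an unadjusted p under 0.05, 5 of 6 endothelial markers differed (3 higher and 2 lower), 4 of 7 microglial markers (2 each way) and 5 of 8 astrocyte markers (2 higher and 3 lower, 1 of the higher ones past the threshold). The part of any of these lists in the members' values was not tested.

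**Figure D2:**
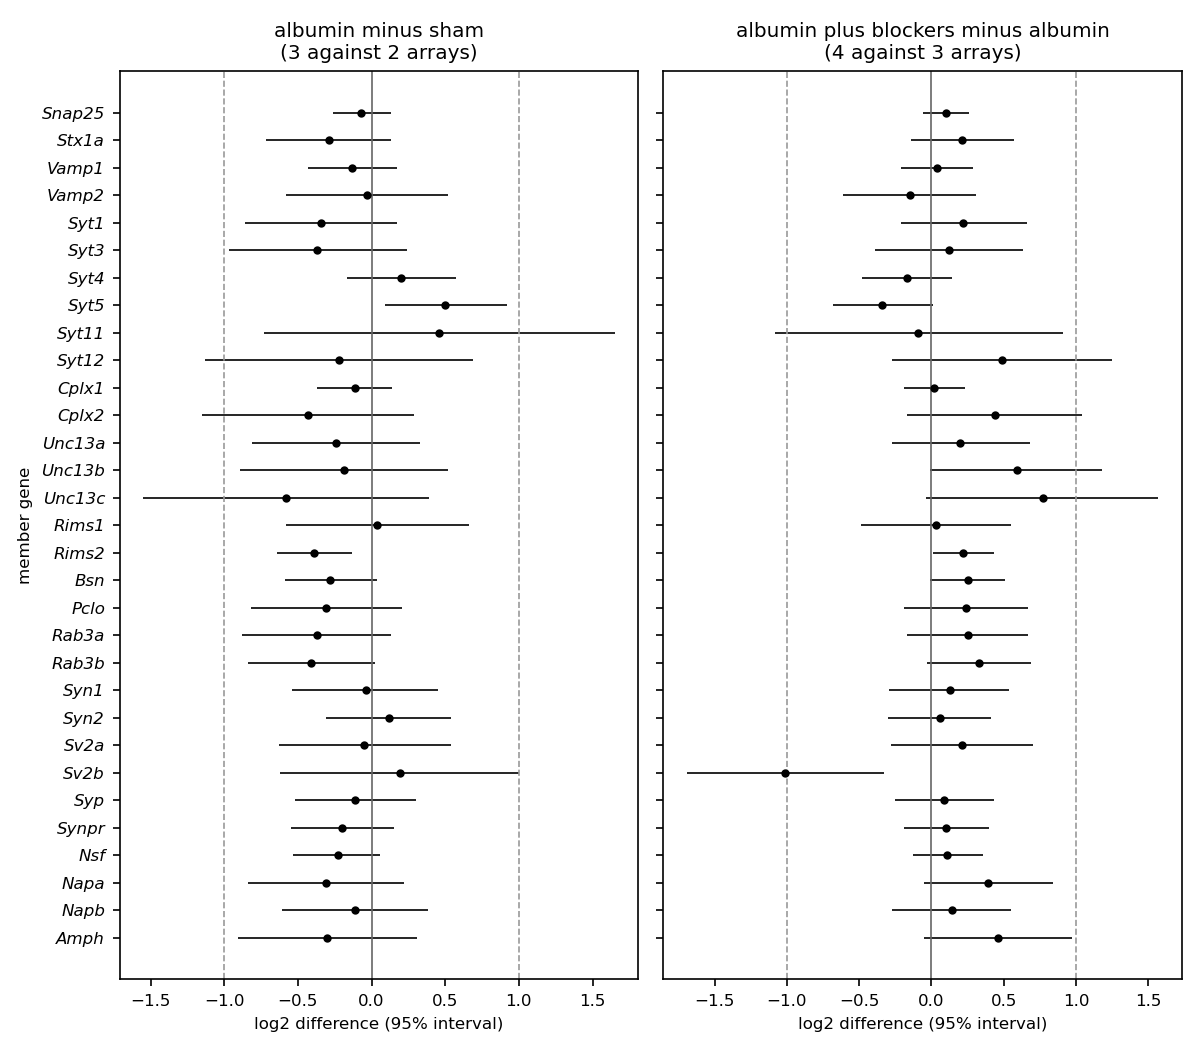
Log2 difference (x axis) of each of the 31 members tested in set 2 (y axis), with points at the fitted difference and bars as 95% intervals from limma; dashed lines mark a 2-fold change. Most points lie left of 0 for albumin minus sham (25 of 31) and right of 0 for albumin plus blockers minus albumin (26 of 31), while Sv2b lies at -1.01 in the second panel.

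Adding the blockers asked which albumin values depended on TGF-β receptors. Again 0 of 31 members passed the threshold, against 0.0194% of all genes (2 genes). At an unadjusted p under 0.05 there were 2 of 31 (Sv2b and Rims2) against 16.6% of all genes. The median member difference between blockers and albumin was 0.14 against -0.00 for all genes, with 26 of 31 members above 0, where 50.6% of all genes were below 0. This comparison uses the same 3 albumin arrays, so its direction is not independent of the difference from sham. Without albumin replicate 2 the median was 0.01 and 13 of 31 members were below 0. Intervals lay within a 2-fold change for 25 of 31 members (80.6%, all genes 82.7%).

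Sv2b had the lowest p here and the largest difference of any member in set 2. It encodes a glycoprotein of the synaptic vesicle membrane. Its log2 signal was 14.59, 14.03 and 14.26 with albumin, 13.45, 12.55, 13.20 and 13.93 with albumin and blockers, and 14.16 and 14.04 in sham. All 4 arrays with blockers were below every albumin array and both sham arrays. The difference from albumin was -1.01 ± 0.29 (SE; 4 against 3 arrays, 95% interval -1.69 to -0.33), with an unadjusted limma p of 0.00873 and an adjusted p of 0.193. When both sets were fitted together, all 19 arrays and a set term, the limma adjusted p was 0.0496, and over the other alternatives it ran from 0.172 to 0.359. The difference from sham was -0.82 ± 0.33 (limma adjusted p = 1).

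A second Sv2b probe set did not show this difference. It read 11.99, 11.41 and 12.04 with albumin, 11.89, 12.03, 11.80 and 11.46 with blockers, and 11.66 and 11.52 in sham. The groups overlapped, and blockers differed from albumin by -0.02. The third was near the floor of the array, at 2.05 to 2.11 in set 2. With the 3 probe sets averaged the difference was -0.35 and the adjusted p 0.223 (limma). The statement on Sv2b therefore holds for 1 probe set and not for the gene as a whole. Among the 13 members with more than 1 detected probe set, 9 had the same sign in this comparison with every one of them, and Cplx1, Pclo, Syn1 and Syt3 did not.

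**Figure D3:**
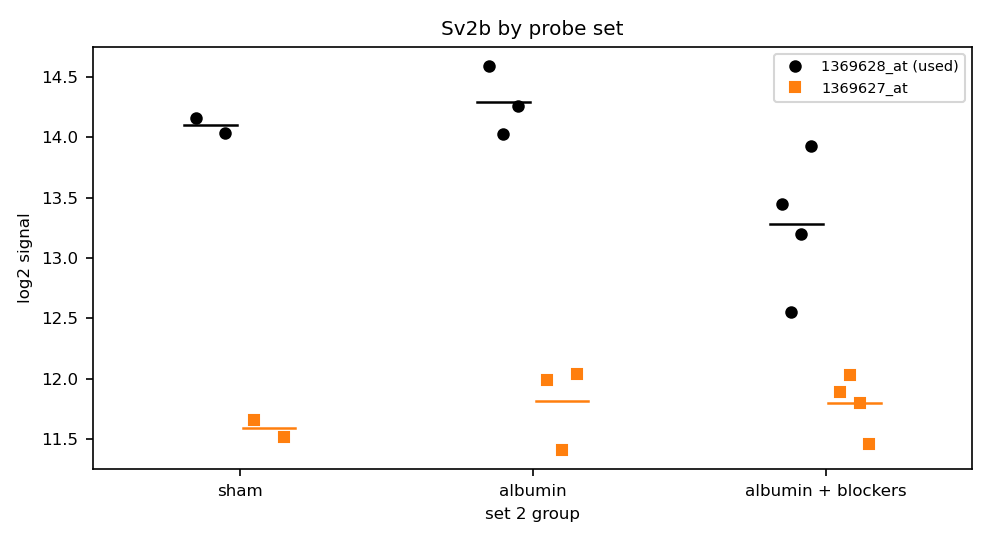
Log2 signal (y axis) of the 2 well-detected Sv2b probe sets on each set 2 array, by group (x axis), with lines at the group means. The probe set used (black) is lower on all 4 arrays with blockers, 12.55 to 13.93, while the other (orange) overlaps between groups.

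Rims2 with the blockers read 9.06, 8.95, 9.17 and 8.87. Every one of these was above the 3 albumin values, a difference of 0.22 ± 0.09 (adjusted p = 0.288 by limma), and the difference from sham was -0.17. Members with all 4 arrays with blockers above all albumin arrays were Snap25, Rims2 and Napa (3 of 31, against 7.32% of all genes). Those with all below were Syt5 and Sv2b (2 of 31, against 8.71%). Syt5 read 10.56, 10.52, 10.29 and 10.03 with blockers, a difference of -0.34 ± 0.15 from albumin (limma adjusted p = 0.309). The Munc13 gene Unc13b read 7.40, 7.48, 7.91 and 6.79 with blockers against 7.02, 6.43 and 6.97 with albumin (0.59 ± 0.26, limma adjusted p = 0.302), and the groups overlapped. All 7 priming and active zone genes were above 0 in this comparison, with a median of 0.24, and the Rab3, complexin and SNARE disassembly genes were all above 0 too. Without albumin replicate 2 the priming median was 0.14 with 6 of 7 above 0 and Rims1 at -0.20, while Rab3a was at 0.00, Cplx1 at -0.04 and Napb at -0.10. The 12 of 15 neuron markers above 0 had the same direction, while 4 of 9 interneuron markers were above 0. The part of either list was not tested.

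With albumin and blockers against sham, members lay close to the sham level. The median difference was -0.02 (all genes 0.02), 16 of 31 members were below 0 (45.4% of all genes) and 0 of 31 passed the threshold, as did 0% of all genes tested by limma. At an unadjusted p under 0.05 there was 1 member, Sv2b, against 4.3% of all genes. Sv2b was the 1 member with all arrays with blockers below sham (8.32% of all genes) and 0 members had all above (11.6%). The interval of 26 of 31 members (83.9%) lay within a 2-fold change, against 86% of all genes. Unc13b (0.40) and Syn2 (0.17) had the smallest p among the members above 0, and Syn2 read 11.38, 11.60, 11.17 and 11.02 with blockers against 11.21 and 11.03 in sham. This overlap left Syn2 within the spread between arrays. Its other probe sets were at -0.06 and 0.20 in this comparison.

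**Figure D4:**
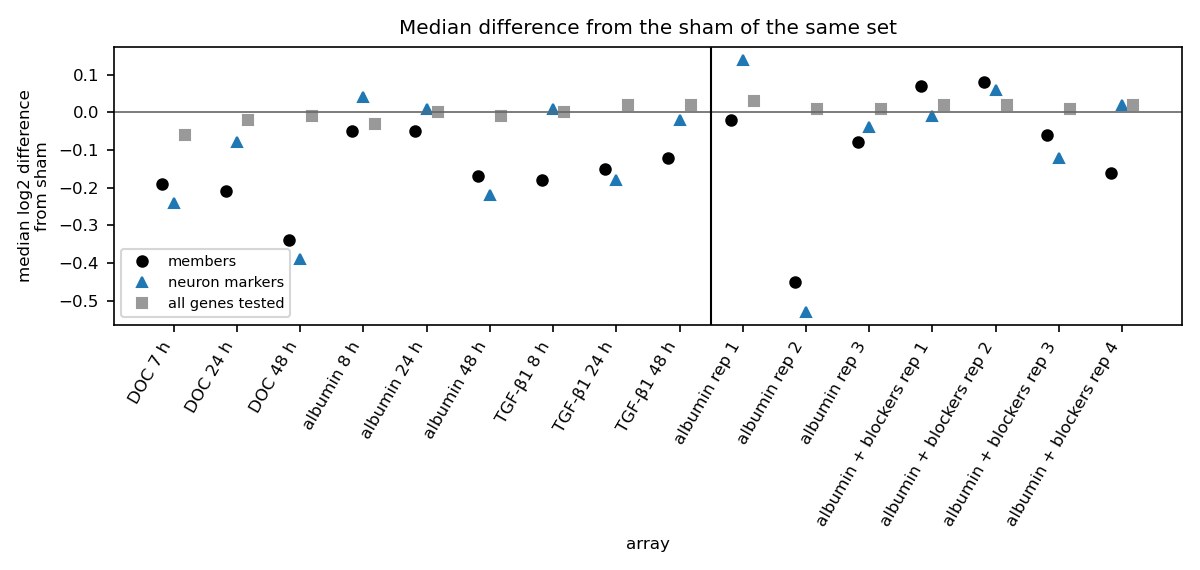
Median log2 difference from the sham of the same set (y axis) on each treated array (x axis), for the members (circles), 15 neuron markers (triangles) and all genes tested (squares). The members and the neuron markers are both lowest on albumin replicate 2 of set 2, at -0.45 and -0.53, and both are below 0 on the 3 DOC arrays.

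In set 1 the question was how the release genes stood after DOC, albumin or TGF-β1 against the single sham. None of the 32 members passed the threshold in any of the comparisons (limma; 0.469% of all genes passed with DOC, 0.369% with albumin and 0% with TGF-β1). At an unadjusted p under 0.05 there were 7 of 32 with DOC (18.7% of all genes), 4 with albumin (11.9%) and 4 with TGF-β1 (7.49%). These rest on 1 sham array that the fit assumed to vary like the treated arrays. The median member difference was -0.26 with DOC, -0.06 with albumin and -0.10 with TGF-β1, against -0.03, -0.02 and 0.01 for all genes. Members below sham numbered 25, 21 and 23 of 32, where 52.8%, 51.9% and 47.4% of all genes were below. The differences between the treatments were not tested. Without the 24 h TGF-β1 array the TGF-β1 median was -0.02, and without the 48 h array -0.20. Without the 24 h albumin array the albumin median was -0.11.

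Of the 3 treatments DOC had the lowest median in every role except endocytosis, where Amph was at 0.09. The Rab3 genes had a median of -0.56 with DOC: Rab3a, the most studied vesicle GTPase, read 11.95, 11.90 and 11.55 at 7, 24 and 48 h against 12.40 in sham (-0.60 ± 0.18, limma adjusted p = 0.157). The other Rab3a probe set read 10.51, 10.13 and 10.22 against 11.59 (-1.31). Rab3b was at -0.56 ± 0.22 and Rab3c at -0.02. Stx1a read 10.91, 11.19 and 10.69 against 11.63 (-0.70 ± 0.24, limma adjusted p = 0.195; -1.02 with its other probe set), and all 4 SNARE genes were below 0. Syt1 read 11.07, 10.42 and 10.89 against 11.44 (-0.64 ± 0.21), and Napa, the main SNAP adaptor of NSF, was at -0.56 ± 0.20. In all, 17 of 32 members had every DOC array below sham, against 29.1% of all genes, 11 had every albumin array below (30.2%) and 14 every TGF-β1 array (24.6%). Members with every array above sham numbered 2 with DOC (23.7% of all genes), 5 with albumin (26.9%) and 3 with TGF-β1 (28.7%). On the DOC 24 h array Syt1, Syt3 and Unc13a were at least 2-fold lower than sham (3 of 32, against 4.95% of all genes). On the other 8 treated arrays 0 members were by the probe sets used, against 1.07% to 4.34% of all genes. Syt3 read 5.59 there against 7.45 in sham and 6.94 and 6.69 at the other DOC times. Unc13a read 4.35 against 5.72.

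Piccolo and Munc13-3 were lower than sham in every treated array by the probe sets used. Pclo read 7.55, 7.28 and 7.10 with DOC, 7.43, 7.35 and 7.26 with albumin and 7.42, 7.33 and 7.38 with TGF-β1, against 8.07 in sham. The differences were -0.76 ± 0.17, -0.72 ± 0.17 and -0.69 ± 0.17, with limma adjusted p of 0.11, 0.164 and 0.329. The treated arrays were close to each other, and the single sham value stood above all 9. Unc13c, encoding Munc13-3, lay between 4.41 and 4.78 on the 9 treated arrays against 5.19 in sham (-0.62, -0.74 and -0.67 by treatment), near the filter on low values. By the probe sets used, 7 of 32 members were below sham on all 9 arrays (Syn1, Snap25, Stx1a, Syt1, Syt3, Unc13c and Pclo), against 12.2% of all genes. Likewise, Syt11 and Sv2b were above on all 9 (11.2% of all genes). A second Pclo probe set, at 3.91 to 5.52 in set 1, was on average 0.66 above sham with DOC and 0.19 above it with albumin. Its direction was thus opposite with these, while with TGF-β1 it was at -0.21. With a mean over the probe sets the Pclo difference was -0.05 with DOC.

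Some members were above sham. Syt11, a synaptotagmin that does not bind calcium, read 8.23, 7.53 and 7.94 with albumin at 8, 24 and 48 h, 7.77, 7.36 and 7.69 with DOC at 7, 24 and 48 h and 7.31, 7.50 and 7.36 with TGF-β1, against 7.13 in sham. Its albumin difference was 0.77 ± 0.25 (limma adjusted p = 0.292), and on the 8 h albumin array it was at least 2-fold above sham (1 of 32 members, against 3.33% of all genes). On the other 8 treated arrays 0 members were by the probe sets used, against 2.58% to 6.39% of all genes. Unc13b, encoding Munc13-2, read 7.29, 7.03 and 7.18 with albumin against 6.39, 0.77 ± 0.41 (limma adjusted p = 0.536), but 6.00, 6.15 and 7.00 with TGF-β1. Sv2b read 13.04 to 13.27 over the 9 treated arrays against 12.90 in sham, differences of 0.29, 0.25 and 0.19 by treatment. Its other well-detected probe set was at 0.81 with DOC, 0.86 with albumin and 0.07 with TGF-β1. On the 8 h TGF-β1 array that probe set was below sham, at 10.55 against 10.72.

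Neuron markers had the same direction on the DOC arrays. Their medians were -0.24, -0.08 and -0.39 at 7, 24 and 48 h, beside -0.19, -0.21 and -0.34 for the members. With albumin the neuron markers were at 0.04, 0.01 and -0.22 beside -0.05, -0.05 and -0.17, and with TGF-β1 at 0.01, -0.18 and -0.02 beside -0.18, -0.15 and -0.12. Summed neuron signal was 15.45 to 15.73 with DOC, 15.67 to 15.94 with albumin, 15.74 to 15.84 with TGF-β1 and 15.88 in sham. The DOC 48 h array held the lowest value of the 10 arrays for 11 of 32 members, against 15.8% of all genes, and the DOC 24 h array for 7 of 32 (17.3%). The part of neuron content was not tested.

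Over time, averaged over the treatments, 0 of 32 members passed the threshold in any comparison of times (limma; 0.799% of all genes for 24 h against 7/8 h, 1.41% for 48 h against 24 h and 5.09% for 48 h against 7/8 h). At an unadjusted p under 0.05 there were 3, 2 and 6 members, against 14.1%, 16.3% and 20.7% of all genes. By direction 19, 19 and 18 of 32 members were below 0, against 45.3%, 51.4% and 48.2% of all genes. Member medians were -0.03, -0.07 and -0.05, against 0.03, -0.01 and 0.01 for all genes. For 48 h against 7/8 h the median was -0.13 without the TGF-β1 8 h array and -0.12 without the TGF-β1 48 h array. In all 3 time comparisons 29 of 32 members (90.6%) had intervals within a 2-fold change, against 84.8%, 83.7% and 81.6% of all genes.

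Cell markers also moved over the span from 7/8 h to 48 h. Of the 15 neuron markers 11 were below 0, with a median of -0.18, 4 lower and 1 higher at an unadjusted p under 0.05 and 0 past the threshold. All 8 microglial markers were above 0 with a median of 1.78, and 6 rose past the threshold. Of the meningeal markers 4 of 8 rose past it (median 1.22), of the astrocyte markers 2 rose and 1 fell (of 8), and of the endothelial markers 2 of 6 rose. Cortical layer markers had 7 of 9 below 0 (median -0.25) and striatal markers 5 of 5 (median -0.71). Interneuron markers mostly went the other way, with 7 of 9 above 0 (median 0.25). At an unadjusted limma p under 0.05, 3 of them were higher and 2 lower, 1 of the lower ones past the threshold. Their part in the members' values over time was not tested.

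The RIM genes had the lowest p over the whole span. Rims2 read 8.24, 8.02 and 7.70 with DOC at 7, 24 and 48 h, 7.95, 7.65 and 7.32 with albumin at 8, 24 and 48 h, and 7.86, 7.69 and 7.58 with TGF-β1. It was lower at each later time within each treatment, and 48 h minus 7/8 h was -0.48 ± 0.12 (SE; 95% interval -0.76 to -0.20; limma adjusted p = 0.0689). Rims1 read 8.87, 8.14 and 8.13, then 8.80, 8.56 and 8.31, then 8.35, 8.12 and 7.97 in the same order (-0.54 ± 0.14; 95% interval -0.86 to -0.22; limma adjusted p = 0.0766). Over the alternatives the adjusted p ran from 0.0539 to 0.255 for Rims2 and from 0.0581 to 0.25 for Rims1. Of the sham at 24 h, Rims2 was at 7.74 and Rims1 at 8.67, inside the range of the treated arrays. In all, 11 of 32 members were lower at 48 h than at 7/8 h in each treatment, against 19.8% of all genes. Higher in each were 2, Syt4 and Syt5 (25.4% of all genes). Syt5 had the smallest p of the members above 0, with a difference of 0.40. With DOC, albumin and TGF-β1 it read 8.20, 8.37 and 8.49 at 7/8 h and 8.33, 8.70 and 9.23 at 48 h.

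Syt12, a synaptotagmin that does not bind calcium, had the lowest p of the members for 48 h against 24 h. It read 7.13, 6.50 and 6.25 at 24 h with DOC, albumin and TGF-β1 and 6.05, 5.37 and 6.00 at 48 h, so every 48 h value lay below every 24 h value. The difference was -0.82 ± 0.20 (SE; 95% interval -1.30 to -0.35; limma adjusted p = 0.125). Synpr, the vesicle protein synaptoporin, read 11.06, 10.91 and 11.01 at 24 h and 11.22, 11.69 and 11.35 at 48 h (0.43 ± 0.15, limma adjusted p = 0.23), higher in each treatment. For 24 h against 7/8 h, Rims1 had the smallest p of the members (-0.40 ± 0.14, limma adjusted p = 0.266). Syt1 was at -0.39 ± 0.15 and Unc13a at -0.67 ± 0.27, limma adjusted p of 0.308 and 0.336. Unc13a read 5.73 then 4.35 with DOC, near the filter on low values. It read 6.05 then 5.61 with albumin and 5.62 then 5.44 with TGF-β1. Among members above 0, the vesicle SNARE Vamp2 (0.31 ± 0.14) and Syt4 (0.30 ± 0.14) had the smallest p, limma adjusted p of 0.37 and 0.392. All 7 priming and active zone genes were below 0 in that comparison (median -0.23), against 45.3% of all genes. They ran from -0.67 for Unc13a to -0.00 for Unc13c, with Bsn at -0.06 and Pclo at -0.14.

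**Figure D5:**
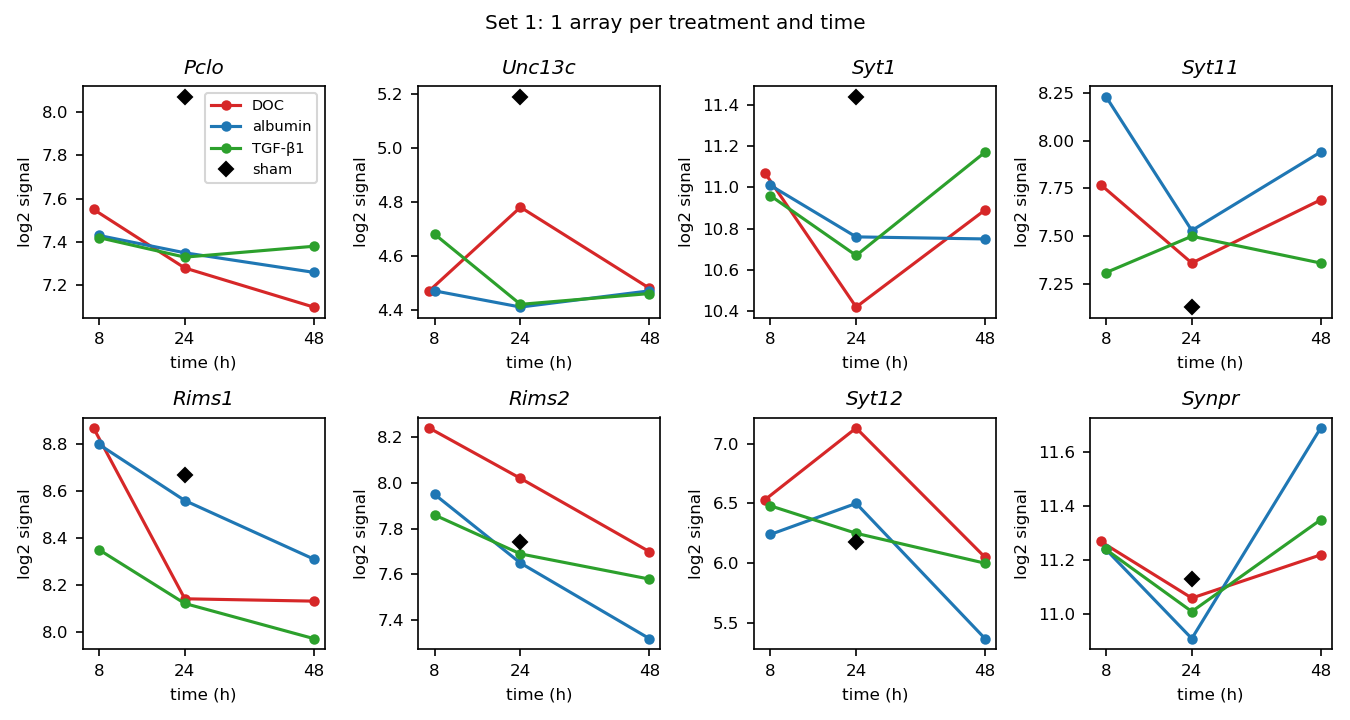
Log2 signal (y axis) of selected members against hours after treatment (x axis) in set 1, 1 array per point, lines joining the arrays of 1 treatment (different animals) and the sham at 24 h shown separately. Rims2 and Rims1 are lower at 48 h than at 7/8 h in each treatment, and Pclo is above all treated arrays in the sham, at 8.07.

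Other genes of exocytosis and vesicle recycling, 105 named and 90 with a probe set, gave the wider picture. In set 2, 77 were tested and 0 passed the threshold in any comparison by limma. Counts at an unadjusted p under 0.05 were 14 of 77 for albumin against sham (21.4% of all genes), 6 for blockers against albumin (16.6%) and 4 for blockers against sham (4.3%). In set 1, 76 were tested, with 0 past the threshold against sham. Counts at an unadjusted p under 0.05 were 12 of 76 for DOC (18.7% of all genes), 4 for albumin (11.9%) and 3 for TGF-β1 (7.49%). The exceptions were in 48 h against 7/8 h, where 4 of 76 passed, against 5.09% of all genes. Vamp8, a SNARE of endosomes and secretory granules, rose by 0.67 ± 0.13 (limma adjusted p = 0.0375), and Rab27a, a GTPase of granule docking, rose by 0.88 ± 0.18 (limma adjusted p = 0.0411). Lin7b, a presynaptic scaffold, fell by 0.84 ± 0.17 (limma adjusted p = 0.0412), and Cadps2, which primes dense-core vesicles, fell by 0.77 ± 0.16 (limma adjusted p = 0.0438). The 6 microglial and 4 meningeal markers past the threshold in this comparison rose with Vamp8 and Rab27a. Of the neuron markers 11 of 15 were below 0 as Lin7b and Cadps2 were, while 7 of 9 interneuron markers were above 0. The part of these markers was not tested. The list medians were -0.01 for albumin against sham in set 2 and -0.15 for DOC against sham, nearer to all genes than those of the members.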

How the data were processed

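Total RNA of rat somatosensory cortex was hybridised to Affymetrix rat arrays. The values deposited are log2 signals, 1 per probe set, made by the authors with GCRMA (per the submitters' processing notes, which name no version). Of 31099 probe sets, 57 were controls, 20826 named 1 gene, 436 several and 9780 none; the last 2 kinds were left out. Where several probe sets named a gene, as for 15 members, the brightest on average over the 19 arrays was used, which gave 14217 genes. Genes above log2 4 on at least 2 arrays of a set were tested, 10329 in set 2 and 10018 in set 1.

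Models were fitted with limma (version 3.58.1, R 4.3.3; lmFit, eBayes, two-sided) to the 3 groups of set 2 and, in set 1, additively to treatment and time, where the residual of 1 array per treatment and time was the spread. p-values were Benjamini-Hochberg adjusted over all genes, with a threshold of 0.05. The fit was tested on simulated data. Python 3.11.15 (pandas 2.3.3, numpy 2.4.6, matplotlib 3.10.9) made the tables and plots. The members, the release machinery list and the marker lists were chosen with earlier results of these data known. The marker lists given were neuron, interneuron, cortical layer, striatum, meninges, neutrophil, endothelium, microglia and astrocyte. Array by array values or ranges were given for most, not all, of the 2 members with the smallest p in each direction and comparison. Over time in set 1, some of these were given by their difference alone, for some treatments only, or not at all. Further members were chosen after their values were seen. Promoters came from RefSeq, GRCr8. The alternatives were other filters, probe set means, array medians subtracted, another prior, a replicate block, other arrays in the fit and leaving out arrays. The number of arrays limits the precision.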

Additional observations from a re-analysis of the deposited data

Results flagged for a closer look

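Napb, encoding the neuronal SNAP adaptor of NSF, lay on opposite sides of the sham with DOC and albumin in set 1, with neither difference past the threshold. It read 12.20, 12.10 and 12.13 with DOC and 12.27, 12.36 and 12.57 with albumin against 12.21 in sham, so the DOC arrays were all below the sham and the albumin arrays all above it. The mean differences from sham were -0.07 ± 0.19 and 0.19 ± 0.19 (SE, limma adjusted p of 0.884 and 0.786). Both 95% intervals spanned 0, and DOC minus albumin was -0.25. This difference was not tested, and all values rest on 1 sham array.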

How the results depend on the processing

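Over the alternatives tried, no member passed the threshold in any comparison, except Sv2b for blockers against albumin in the fit of all 19 arrays (-1.02, adjusted p = 0.0496 by limma, a count of 1). The 36 results for named members kept their sign in all 562 alternatives. They had been picked for the smallest p in the same data, which favours a stable sign. Some results outside these 36 changed sign. For albumin against sham in set 2, leaving out albumin replicate 2 moved Vamp2 from -0.03 to 0.13 and Napb from -0.11 to 0.13. The member median moved by more than the spread between arrays for DOC against sham without the filter (-0.16) and at 24 h (-0.20), for TGF-β1 against sham with all 19 arrays (-0.16) and for 48 h against 24 h with probe sets averaged (0.02, of opposite sign). Leaving out 1 array, it ran from -0.30 to -0.06 for albumin against sham in set 2, 0.01 to 0.30 for blockers against albumin, -0.04 to 0.03 for blockers against sham, -0.33 to -0.19 for DOC, -0.11 to -0.04 for albumin and -0.20 to -0.02 for TGF-β1 in set 1, -0.06 to 0.01 for 24 h against 7/8 h, -0.15 to -0.02 for 48 h against 24 h and -0.13 to -0.01 for 48 h against 7/8 h. The cause was not tested. With the replicate number as a block in set 2, 0 members passed in each comparison, the medians were -0.20, 0.17 and -0.01, Rims2 was at -0.41 against sham (limma adjusted p = 0.188) and Sv2b at -1.22 against albumin (limma adjusted p = 0.188). Whether arrays with the same replicate number shared an animal, litter or day is not known, as no label says so. Of 7 same-numbered pairs, 3 correlated above 0.1 (-0.14 to 0.22), and so few pairs cannot decide it.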
